A study of Mus musculus with 11 samples.

Results

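*Il23a*, *Il1r1*, *Tnfsf15*, and *Tnfrsf9* are 4 genes of the interleukin and tumour necrosis factor (TNF) pathways, chosen by symbol from the 458 different genes whose values were analysed. All 4 were among the 191 genes listed for lymphatic endothelial cells (LECs), and *Tnfrsf9* was also among the 290 genes listed for the carcinoma cell line HaCa4. Bulk RNA sequencing had been performed on 11 mouse libraries, from LEC control (n = 3) and HaCa4 control (n = 2), each grown in single culture, and from LEC-sorted (n = 3) and HaCa4-sorted (n = 3), separated by FACS when the lines had grown together for 24 h. HaCa4 is a skin squamous carcinoma line that carries an oncogenic H-Ras, and the LECs (imLEC) are an immortalised line with an inducible, thermolabile SV40 large T antigen. More than one LEC clone was in use, and the labels do not tie a library to a clone. Co-cultured HaCa4 cells were recognised by the dye CFSE and co-cultured LECs by CD31, whereas sorting is not described for the single cultures, so that the effects of co-culture and of sorting cannot be told apart. Labels do not say whether replicates came from separate cultures, and p-values therefore measure only the spread between these libraries.

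IL-23 is a cytokine made of a chain of its own, encoded by *Il23a*, and a chain that it shares with IL-12, encoded by *Il12b*. It is best known from myeloid cells, and it sustains lymphocytes that produce IL-17. *Il1r1* encodes the signalling receptor for IL-1α and IL-1β, through which endothelial cells are driven to NF-κB activity and to the production of chemokines and adhesion molecules. *Tnfsf15* encodes TL1A, a TNF superfamily ligand first described in endothelial cells, and *Tnfrsf9* encodes CD137, a costimulatory TNF receptor that binds the ligand encoded by *Tnfsf9*. *Il12b*, *Il1a*, *Il1b*, *Tnfsf9*, and the TL1A receptor gene *Tnfrsf25* were not analysed here.

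The genes were placed on GRCm38.p6 by matching their Entrez IDs to RefSeq, and each value covers the whole gene rather than one transcript. *Il23a* lies on chromosome 10 (128296140 to 128298084), *Il1r1* on chromosome 1 (40222480 to 40316201), *Tnfsf15* on chromosome 4 (63724600 to 63745059), and *Tnfrsf9* also on chromosome 4 (150920155 to 150946104). Promoter windows of 300 bases, reaching from 250 bases before a transcription start to 50 bases after it, were given by RefSeq for 3 of the 4 genes, with 2 starts each for *Il1r1* and *Tnfrsf9*. Of these, 4 windows are shown because they differ in matches to NF-κB and AP-1, factors that act downstream of IL-1 and TNF receptors. Each is printed 5′ to 3′ on the strand of the gene, and capitals mark every match to the NF-κB consensus (10 bases) or to AP-1 (TGACTCA or TGAGTCA), both strands being searched.
*Tnfrsf9*, upstream start, plus strand, chr4:150919905-150920204: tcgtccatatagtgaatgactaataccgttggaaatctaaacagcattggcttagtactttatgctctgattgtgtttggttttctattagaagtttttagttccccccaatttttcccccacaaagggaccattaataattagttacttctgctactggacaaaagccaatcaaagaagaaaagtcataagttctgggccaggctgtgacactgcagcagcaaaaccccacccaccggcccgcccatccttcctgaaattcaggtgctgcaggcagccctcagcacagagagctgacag
*Tnfrsf9*, downstream start, plus strand, chr4:150927749-150928048: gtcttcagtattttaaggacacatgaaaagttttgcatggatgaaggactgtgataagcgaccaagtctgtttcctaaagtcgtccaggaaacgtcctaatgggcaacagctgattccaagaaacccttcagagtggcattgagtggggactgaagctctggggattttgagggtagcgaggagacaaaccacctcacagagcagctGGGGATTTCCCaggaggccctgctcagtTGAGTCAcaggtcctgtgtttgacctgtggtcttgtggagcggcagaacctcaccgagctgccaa
*Il1r1*, downstream start, plus strand, chr1:40266336-40266635: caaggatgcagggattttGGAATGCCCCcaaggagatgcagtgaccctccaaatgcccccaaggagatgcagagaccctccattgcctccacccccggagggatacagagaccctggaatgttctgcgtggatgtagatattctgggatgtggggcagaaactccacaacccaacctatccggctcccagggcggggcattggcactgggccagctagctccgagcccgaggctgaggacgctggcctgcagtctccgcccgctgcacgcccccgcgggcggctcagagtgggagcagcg
*Tnfsf15*, minus strand, chr4:63745010-63745309: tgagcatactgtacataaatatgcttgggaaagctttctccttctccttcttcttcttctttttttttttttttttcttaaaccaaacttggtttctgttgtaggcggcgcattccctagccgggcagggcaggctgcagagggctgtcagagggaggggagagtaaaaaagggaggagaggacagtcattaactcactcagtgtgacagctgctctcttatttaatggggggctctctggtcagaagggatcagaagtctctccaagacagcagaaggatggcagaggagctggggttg

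The window of the downstream *Tnfrsf9* start held 2 overlapping NF-κB matches, from -43 to -33 relative to the start, and 1 AP-1 match, from -15 to -9. The window of the upstream *Tnfrsf9* start held neither. The downstream *Il1r1* start had 1 NF-κB match, from -232 to -223, and the *Tnfsf15* window and that of the upstream *Il1r1* start had 0 of either. An NF-κB match was present in 8.46% of all 32851 windows and in 22.9% of the 175 windows of genes listed for LECs. An AP-1 match was present in 5.20% of all windows and in 14 of the 175. These letters are a description of the windows, and the data do not tell which start was used.

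All 4 genes had more transcripts in every LEC-sorted library than in any LEC control library. Values are TPM, an abundance per transcript length that the authors scaled to a fixed total in each library. Sorted cells were set against the control of the same line by limma on log2(TPM + 1), with two-sided p-values adjusted by the Benjamini-Hochberg method over all genes listed for that line. A gene passed when its log2 fold change reached 0.5 in either direction and its adjusted p did not exceed 0.05. These thresholds were taken from the methods of the study, which applied them to DESeq2 results and not to log2(TPM + 1), so calls can differ. With this test, 3 of the 4 genes passed as higher in LEC-sorted, as did 63.9% of all genes listed for LECs (96.3% passed in either direction), and the libraries of 63.9% of the listed genes were likewise higher without overlap. The list holds genes that changed in these same samples, so a share of this size is not a result about the 4 genes. The p-values and confidence intervals given for them in LECs also follow that selection. They are therefore not independent evidence of a change.

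*Il23a* had few transcripts in LECs cultured alone and rose, with a wide spread among the sorted libraries. It was at 0.10, 0.43, and 0.19 TPM in LEC control replicates 1 to 3 and at 3.42, 3.84, and 0.77 TPM in LEC-sorted replicates 1 to 3. Sorted replicate 3 stood far below the other sorted libraries, although it remained above the highest control. The mean was 0.240 ± 0.171 TPM (SD, n = 3) in LEC control and 2.68 ± 1.66 TPM (SD, n = 3) in LEC-sorted, a ratio of 11.2. The fold change on log2(TPM + 1), a scale that compresses changes near 0, was 1.45 (standard error 0.42, 95% confidence interval 0.46 to 2.43, adjusted p = 0.0132 from limma). This was the 40th largest rise among the 191 listed genes. Without sorted replicate 3 the log2 fold change was 1.91 (adjusted p = 0.00326 from limma), the largest among omissions of a single library. It was smallest without sorted replicate 2, at 1.18 (adjusted p = 0.0325 from limma). The highest adjusted p came without control replicate 1, at 0.0405 from limma, with a log2 fold change of 1.36.

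*Il1r1* was the only gene of the group that was already well expressed in LECs cultured alone. The controls had 49.88, 25.83, and 35.88 TPM of it, and LEC-sorted replicates 1 to 3 had 85.14, 84.17, and 74.39 TPM. The controls varied more than the sorted libraries did, with a coefficient of variation of 32.5% against 7.32%. The mean was 37.2 ± 12.1 TPM (SD, n = 3) in LEC control and 81.2 ± 5.95 TPM (SD, n = 3) in LEC-sorted, a 2.18-fold change. The log2 fold change was 1.15 (standard error 0.24, 95% confidence interval 0.58 to 1.72, adjusted p = 0.00566 from limma). It was 0.54 when the libraries were brought to one common median of their listed genes, and it no longer passed (adjusted p = 0.132 from limma), and the libraries overlapped, since control replicate 1 came to 65.1 and sorted replicates 2 and 3 to 62.3 and 62.1 TPM. That scaling moved the log2 fold changes of all genes listed for LECs by a median of -0.61.

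*Tnfsf15* remained close to 0. The controls had 0.02, 0.00, and 0.04 TPM, and LEC-sorted replicates 1 to 3 had 0.34, 0.71, and 0.16 TPM. No library overlapped, but the control values amount to a few units of the second decimal, to which the values were rounded, so no fold is given. The mean in LEC-sorted, 0.403 ± 0.280 TPM (SD, n = 3), was the lowest of all 191 listed genes. The log2 fold change of 0.44 (standard error 0.27, 95% confidence interval -0.19 to 1.07) did not pass (adjusted p = 0.144 from limma). The call depended on the constant added before the logarithm. With 0.1 in place of 1, the log2 fold change was 1.93 and passed (adjusted p = 0.0428 from limma), as the plot of the change on 4 scales shows.

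*Tnfrsf9* had the most uniform controls of the group in LECs, with 0.26, 0.28, and 0.29 TPM. The sorted libraries were at 1.35, 1.27, and 1.87 TPM, all well above that narrow range. The mean was 0.277 ± 0.015 TPM (SD, n = 3) in LEC control and 1.50 ± 0.33 TPM (SD, n = 3) in LEC-sorted, a 5.41-fold change. The log2 fold change was 0.96 (standard error 0.25, 95% confidence interval 0.38 to 1.54, adjusted p = 0.00952 from limma). With 5 added to each value it was 0.30, below the fold threshold. An exact two-sided permutation test gave p = 0.1 for each of the 4 genes in LECs, the smallest value that 3 libraries against 3 allow.

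**Figure D1:**
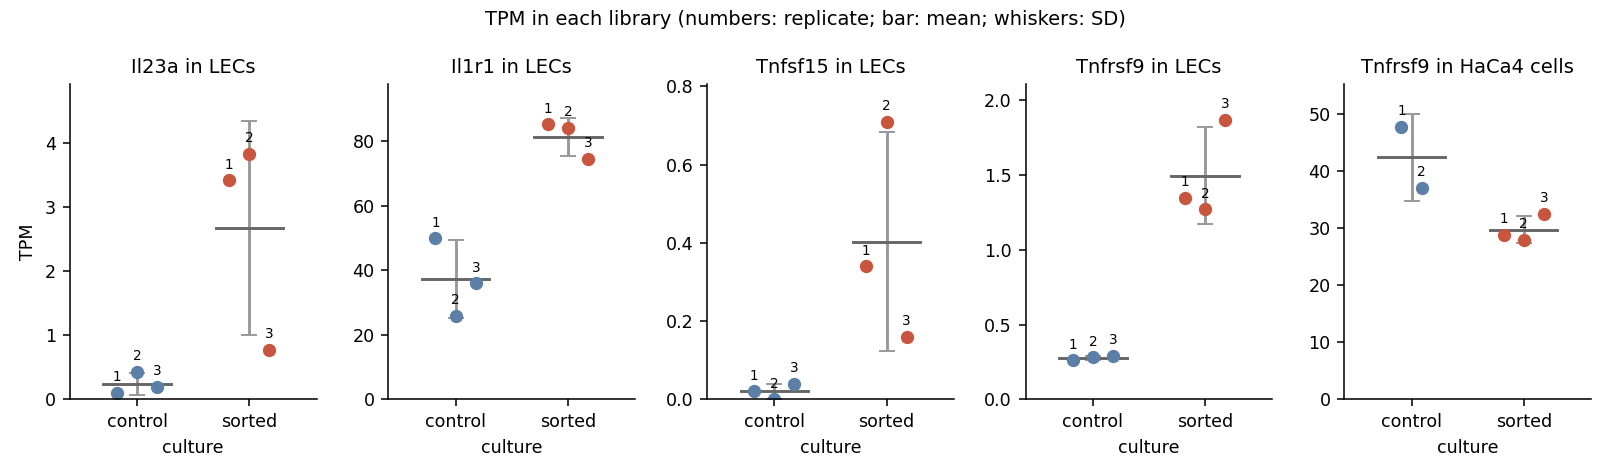
TPM of each gene (vertical axis, from 0, a separate scale in each panel) in control and sorted libraries of LECs and, for *Tnfrsf9*, of HaCa4 cells. Points are libraries with their replicate numbers, horizontal bars are means, and whiskers are SDs. In LECs all sorted libraries lie above the controls, with replicate 3 lowest for *Il23a* and *Tnfsf15* and highest for *Tnfrsf9*, and in HaCa4 cells all sorted libraries lie below the controls.

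Among the 4 genes, *Il1r1* had the highest level in LEC-sorted and *Tnfsf15* the lowest. *Il23a* and *Tnfrsf9* lay between them and did not differ beyond their spread, since the *Tnfrsf9* libraries (1.27 to 1.87 TPM) fell within the range of *Il23a* (0.77 to 3.84 TPM). In LEC control *Il1r1* was again the highest and *Tnfsf15* the lowest, and *Tnfrsf9* (0.26 to 0.29 TPM) again fell within the range of *Il23a* (0.10 to 0.43 TPM). Averaged over all 6 LEC libraries, *Il1r1* and *Il23a* had at least 1 TPM, and *Tnfrsf9* and *Tnfsf15* had 0.887 and 0.212 TPM. In a filter at 1 TPM, 2 of the 4 genes thus remained.

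**Figure D2:**
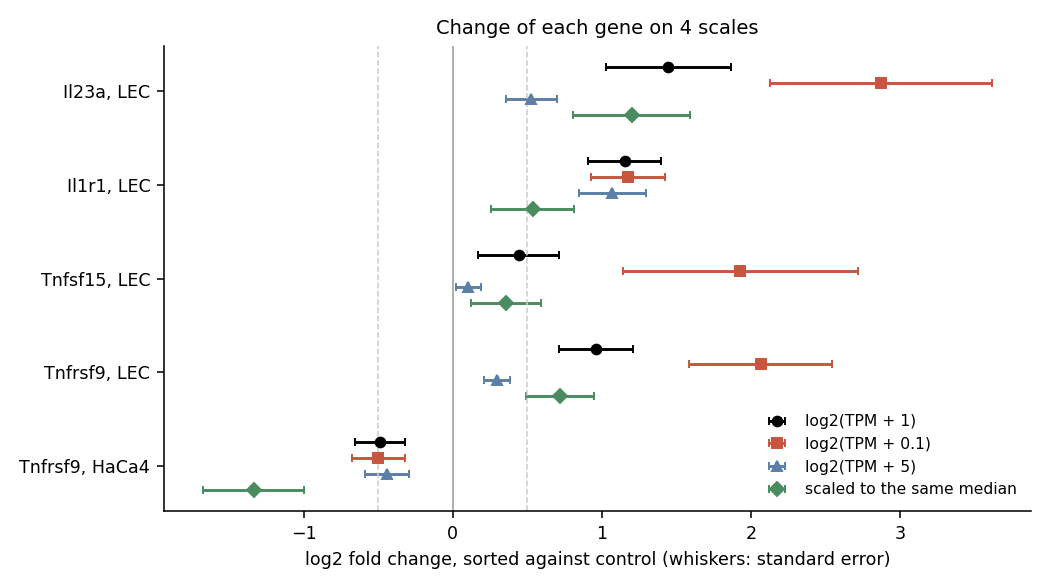
Log2 fold change of sorted against control (horizontal axis) with its standard error for each gene, on log2(TPM + 1), with 0.1 or 5 added in place of 1, and after scaling to a common median. Dashed lines mark the fold threshold of 0.5 in either direction. *Il1r1* hardly moved with the added constant (1.07 to 1.17), whereas *Il23a* ranged from 0.53 to 2.87 and *Tnfsf15* from 0.10 to 1.93.

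The genes did not share one order of the sorted LEC libraries. Replicate 3 was the lowest for *Il23a*, *Tnfsf15*, and *Il1r1*, at 28.8%, 39.7%, and 91.6% of the respective mean of the sorted libraries, and the highest for *Tnfrsf9*, at 125%. Of 22 listed response targets of IL-1 and TNF, 15 were also lowest in replicate 3, as were 66 of the 122 listed genes that passed as higher and 72 of all 191. Replicate 2 was the highest for 18 of the 22 targets, for 72 of those 122 genes, and for 97 of all 191. The shares of the targets in replicate 3 ranged from 23.3% for *Cxcl3* to 142% for *C3*. What set replicate 3 apart was not tested.

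**Figure D3:**
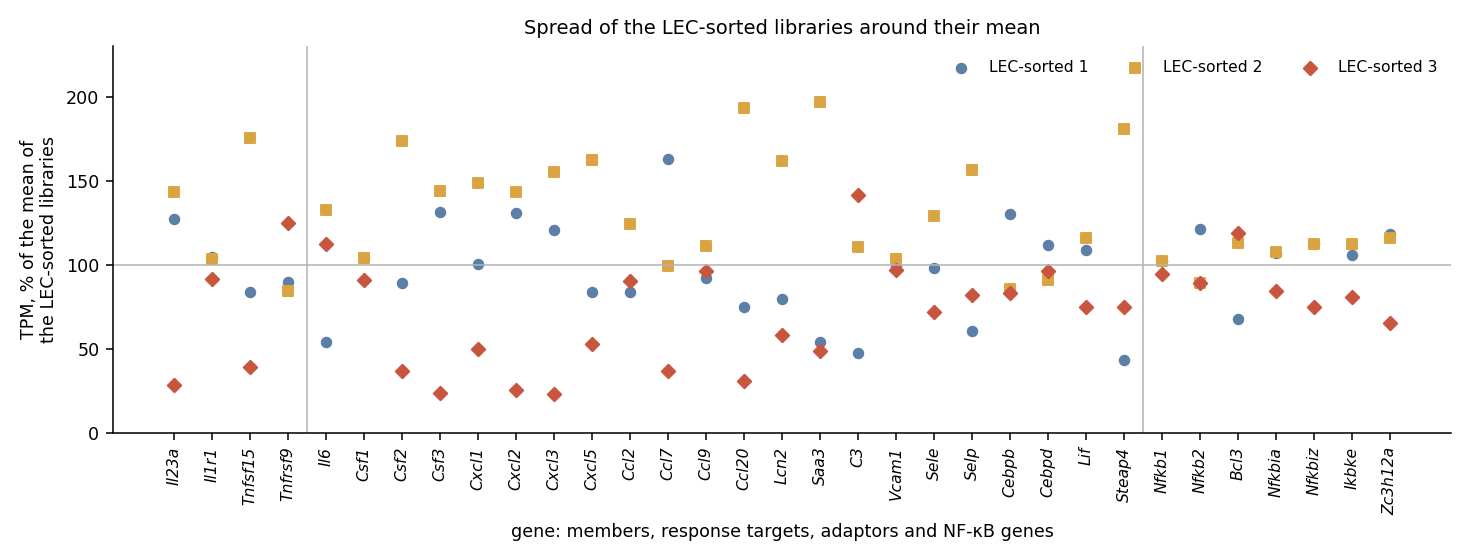
TPM in each LEC-sorted library as a percentage of the mean of the sorted libraries (vertical axis) for the 4 genes, 22 response targets of IL-1 and TNF, and 7 adaptor and NF-κB genes. Replicate 3 (diamonds) is at 28.8% for *Il23a* and 125% for *Tnfrsf9*, and its median over the response targets is 73.4%.

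Of the surrounding pathway, few genes were listed. The listed LEC genes included 1 of 25 IL-1 family and receptor genes, 1 of 20 in the IL-12 and IL-23 family, 1 of 18 TNF superfamily ligands, and 1 of 28 TNF receptors, which were the 4 genes themselves. Downstream, 7 of 33 adaptor, NF-κB, and feedback genes were listed, and all 7 passed as higher, where 63.9% of all listed genes did. Their median log2 fold change was 1.30. It was 0.87 for all listed genes, of which 32.5% passed as lower, so these medians do not compare rises with rises. *Nfkbiz*, an atypical IκB protein that acts with NF-κB in the nucleus, and *Bcl3*, another protein of that kind, had the largest changes of the 7, with log2 fold changes of 2.06 and 2.01. *Zc3h12a*, a ribonuclease that degrades cytokine transcripts including *Il6*, rose from a mean of 4.85 ± 0.61 TPM (SD, n = 3) to one of 18.8 ± 5.62 TPM (SD, n = 3). *Nfkbia*, the classical inhibitor of NF-κB, had a log2 fold change of 1.30, and *Nfkb1* and *Nfkb2*, which encode NF-κB subunits, of 1.02 and 0.79. After scaling to the same median, 4 of these 7 genes passed as higher, namely *Bcl3*, *Nfkbia*, *Nfkbiz*, and *Zc3h12a*, as did 46 of all 191.

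Of 24 response targets, 22 were listed for LECs, and all 22 passed as higher in LEC-sorted, where 63.9% of all listed genes did. The median log2 fold change was 2.43 for the 22 and 0.87 for all listed genes, which again include those that fell. After scaling, 18 of the 22 passed as higher, as did 46 of all 191. The list of response targets was drawn up with earlier results of these samples known, and its count is not independent evidence of a direction. Their log2 fold changes ranged from 0.85 for *Csf1*, below that of *Il1r1*, to 7.19 for *Lcn2*. *Il6*, which shares a low level with *Il23a*, rose from a mean of 0.360 ± 0.225 TPM (SD, n = 3) to one of 3.24 ± 1.32 TPM (SD, n = 3).

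**Figure D4:**
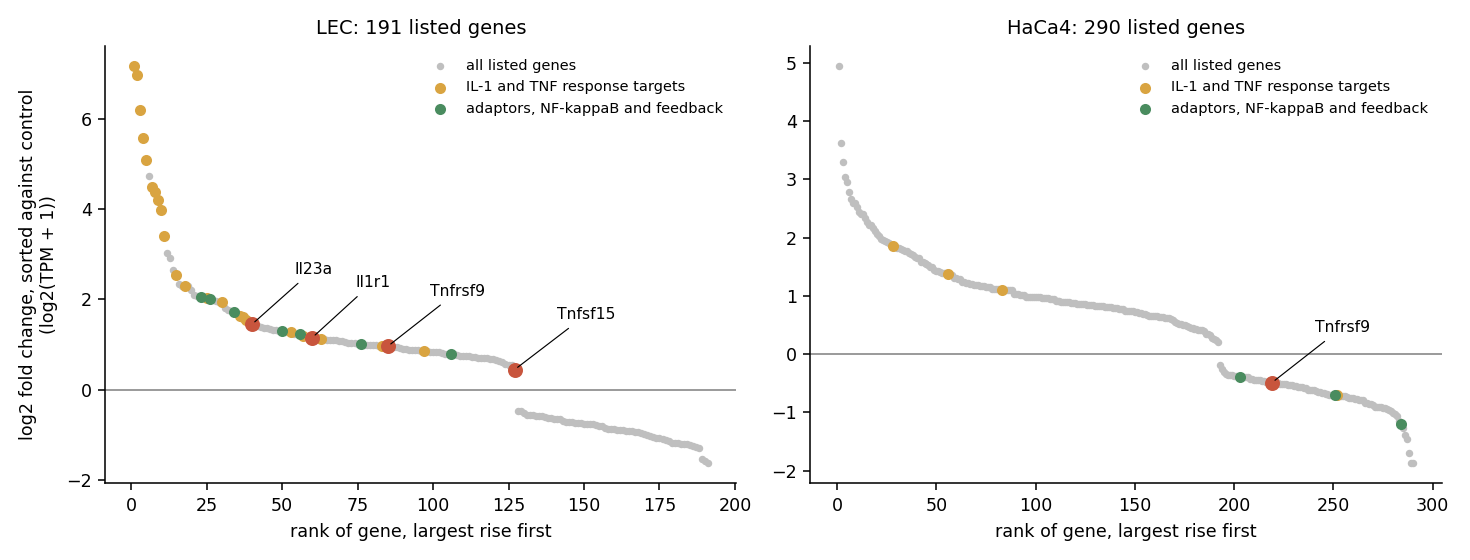
Log2 fold change of sorted against control (vertical axis) for the 191 genes listed for LECs and the 290 listed for HaCa4 cells, ranked from the largest rise. Red points are the 4 genes, which stand at ranks 40, 60, 85, and 127 in LECs, and *Tnfrsf9* at rank 219 in HaCa4 cells, whereas the largest rise in LECs, 7.19, is that of the response target *Lcn2* (ochre points).

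The genes with the most similar profile in LECs were found by the root mean square difference of log2(TPM + 1) over the 6 libraries, each profile being centred on its control mean. *Ptch1*, the Hedgehog receptor gene, was closest to *Il1r1*, with a difference of 0.06 against a median of 0.77 over the listed genes. Control replicate 2 was the lowest and sorted replicate 3 the lowest of the sorted libraries for both genes, and *Ptch1* was at 35.34, 18.22, and 23.22 TPM in LEC control and 54.32, 56.39, and 51.45 TPM in LEC-sorted. *Errfi1*, a feedback inhibitor of the EGF receptor, came next for *Il1r1*, at 0.14. For *Tnfrsf9* the closest genes were *Wdyhv1* and *Slfn4*, at 0.11 and 0.14, and sorted replicate 3 was the highest library for both. *Slfn4* had 0.623 TPM in the mean of the controls and 2.31 TPM in that of the sorted libraries. *Nts*, which encodes neurotensin, and *Zc3h12a* were nearest to *Il23a*, at 0.27 and 0.29, and both were lowest in sorted replicate 3. *Plekhm3* and *Synpo* were nearest to *Tnfsf15*, at 0.15 and 0.16. For genes near 0 such a match depends on the added 1, which compresses their changes. The mean of *Plekhm3* went from 7.43 to 11.28 TPM and that of *Tnfsf15* from 0.02 to 0.403 TPM.

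In HaCa4 cells *Tnfrsf9* was at a much higher level, and it went the other way. Its values were 47.72 and 37.02 TPM in HaCa4 control replicates 1 and 2 and 28.87, 27.88, and 32.44 TPM in HaCa4-sorted replicates 1 to 3. The sorted libraries lay close together and below both controls. Libraries without overlap that were lower in the sorted group were found for 33.4% of the genes listed for HaCa4. HaCa4 control had a mean of 42.4 ± 7.57 TPM (SD, n = 2), and HaCa4-sorted had 29.7 ± 2.40 TPM (SD, n = 3). The log2 fold change was -0.49 (standard error 0.17, 95% confidence interval -0.89 to -0.09), and the gene missed both thresholds (adjusted p = 0.0548 from limma), where 14.1% of listed genes passed as lower. An exact two-sided permutation test gave p = 0.2, the smallest value possible for 3 libraries against 2.

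The size of this difference rested on the controls and on the scaling. Without HaCa4 control replicate 1 the log2 fold change was -0.31 (adjusted p = 0.294 from limma), and without control replicate 2 it was -0.67 (adjusted p = 0.161 from limma). When the libraries were scaled to the same median, it was -1.34 and passed (adjusted p = 0.00144 from limma). That scaling moved the log2 fold changes of all genes listed for HaCa4 by a median of -0.72. It rests on the listed genes only, whose median was 4.8 and 4.1 TPM in the controls and 6.3 to 9.4 TPM in the sorted libraries. In the controls 54 and 56 of these genes were at 0, and in each sorted library 0 were. The direction of the *Tnfrsf9* change was the same in all of these settings. As the libraries did not overlap, only the scaling could have reversed it. The closest profiles over the 5 HaCa4 libraries were those of *Tmem176b* and *Dcxr*, both at a root mean square difference of 0.09, with sorted replicate 3 again the highest of the sorted libraries and replicate 2 the lowest.

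The change of *Tnfrsf9* in LECs exceeded that in HaCa4 cells by 1.45 on the log2(TPM + 1) scale (standard error 0.32, 95% confidence interval 0.75 to 2.15, adjusted p = 0.00202 by the interaction term of limma). This test was made over the 23 genes listed for both lines and all 11 libraries, and 82.6% of these genes passed it. TPM was scaled within each library, and on that scale the mean of *Tnfrsf9* was 153 times higher in HaCa4 control than in LEC control and 19.9 times higher in HaCa4-sorted than in LEC-sorted. The lowest HaCa4 library was 14.9 times the highest LEC library. The order of its levels was therefore HaCa4 control, HaCa4-sorted, LEC-sorted, and LEC control, without overlap between any neighbours in that order. *Ikbke*, which encodes the NF-κB-activating kinase IKKε, was the only gene of the pathway lists that passed in opposite directions. It was higher in LEC-sorted (log2 fold change 1.22) and lower in HaCa4-sorted (log2 fold change -0.70).

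In LECs the level of *Tnfrsf9* was compared with that of a keratin, since HaCa4 cells express both. *Krt8*, the only one of 25 keratinocyte markers listed for LECs, was at 0 in all 3 LEC controls and at 0.19, 2.19, and 0.89 TPM in LEC-sorted replicates 1 to 3. In bulk RNA, more cells of a type and more RNA per cell cannot be told apart. These values are 0.0859%, 0.990%, and 0.402% of the *Krt8* mean in HaCa4-sorted, 221 TPM. *Tnfrsf9* reached 4.54%, 4.27%, and 6.29% of its own mean in HaCa4-sorted in the same libraries, and between 0.875% and 0.975% in the controls. The share of *Tnfrsf9* was thus larger than that of *Krt8* in each sorted library, and their order over the libraries differed. The part of HaCa4 transcripts in the rise of *Tnfrsf9* was not tested beyond these values.

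**Figure D5:**
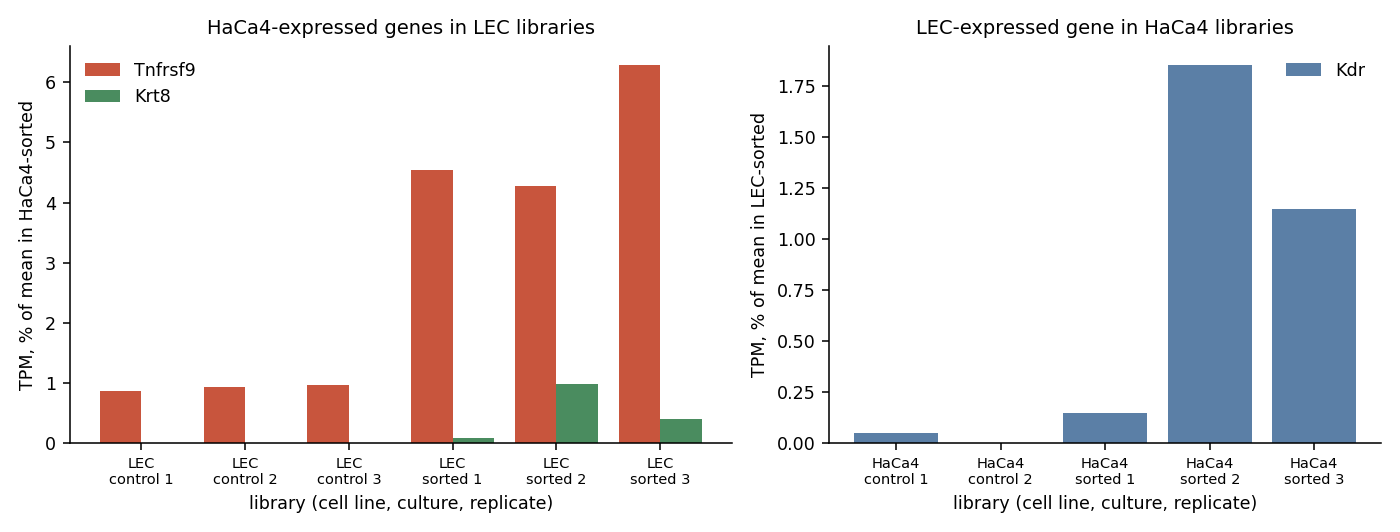
TPM of *Tnfrsf9* and *Krt8* in each LEC library as a percentage of their mean in HaCa4-sorted (left), and TPM of *Kdr* in each HaCa4 library as a percentage of its mean in LEC-sorted (right). In the sorted LEC libraries *Tnfrsf9* lies between 4.27% and 6.29% and *Krt8* between 0.0859% and 0.990%, and *Kdr* reaches at most 1.85% in HaCa4 libraries.

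Endothelial markers moved with the HaCa4 comparison. Of 33 such markers, 20 were listed for HaCa4 cells, and the mean was higher after co-culture for all 20. Only 2 of them passed as higher, where 15.9% of all genes listed for HaCa4 did. In both controls 8 were at 0, among them *Cdh5* and *Emcn*. Of all 290 listed genes, 54 were at 0 in control replicate 1 and 56 in control replicate 2. The summed level of the 20 markers was 3.07 to 4.04 TPM in the controls and 20.01 to 297.5 TPM in the sorted libraries. Among the sorted libraries replicate 2 was the highest and replicate 1 the lowest for all 20. *Kdr*, an endothelial receptor gene listed for both lines, was in HaCa4-sorted replicates 1 to 3 at 0.149%, 1.85%, and 1.15% of its mean in LEC-sorted. *Tnfrsf9* was lower than in the controls in each of the 3, including replicate 1, where these markers were lowest. Their part in the fall of *Tnfrsf9* was not tested. Of the 33 markers, *Kdr* and *Clec14a* were listed for LECs, and both passed as lower, as did 32.5% of listed genes, with summed levels of 187 to 304 TPM in the controls and 108 to 153 TPM in LEC-sorted. Of the 25 keratinocyte markers, 3 were listed for HaCa4 cells. Of these 3, 2 passed as lower, where 14.1% of all genes listed for HaCa4 did. Their summed levels were 310.8 to 399.7 TPM in the controls and 215.0 to 246.4 TPM in HaCa4-sorted. None of 16 leukocyte markers was listed for either line.

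Some components of these pathways, among them *Il12rb1*, *Tnip3*, and *Tnfaip2*, were listed for HaCa4 cells only. *Il12rb1*, which encodes a receptor chain shared by IL-12 and IL-23, was at 6.97 and 5.85 TPM in HaCa4 control and at 3.76, 4.01, and 3.11 TPM in HaCa4-sorted. Its libraries did not overlap, but its log2 fold change of -0.68 did not pass (adjusted p = 0.119 from limma). *Tnip3*, an inhibitor of NF-κB signalling, fell from a mean of 2.35 ± 0.70 TPM (SD, n = 2) to one of 0.443 ± 0.191 TPM (SD, n = 3), and its log2 fold change was -1.21 (adjusted p = 0.0491 from limma). *Tnfaip2*, a gene induced by TNF, had a log2 fold change of -0.39, short of the fold threshold. Of the 3 adaptor and feedback genes listed for HaCa4 cells, 2 passed as lower and 0 as higher, where 14.1% of all genes listed for HaCa4 passed as lower. Of 4 response targets listed for HaCa4 cells, *Cxcl3* and *Selp* passed as higher, with log2 fold changes of 1.10 and 1.38, as did 15.9% of all genes listed for HaCa4.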

How the data were processed

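Per the labels, bulk RNA was sequenced in 11 mouse libraries, which were grouped by their titles. Reads were cleaned by the authors with SOAPnuke and mapped to the mouse genome GRCm38.p6 by HISAT (HISAT2 2.0.4 in the submitters' processing notes), and DESeq2 was used to find changed genes. The authors deposited TPM values to 2 decimals, for 191 genes in LECs and 290 in HaCa4. The tool that gave TPM is not given in the sources used here. Listed genes make up 1.84% to 3.85% of a library. Depth is unknown from TPM, and precision rests on the replicates.

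Each comparison was fitted with limma 3.58.1 (R 4.3.3, trended empirical Bayes) on log2(TPM + 1) over all listed genes of a line, and the interaction over the 23 shared genes. The step was tested on data simulated with independent normal noise and many unchanged genes. The listed genes changed in these same samples, so that test does not measure the error of the calls given here. Replicate libraries had at most 5 identical values above 0. In LECs same-numbered libraries did not pair: the correlations of their deviations from the group means were 0.23, 0.07, and -0.02. HaCa4 has only 2 such pairs, at 0.23 and 0.28, each the highest value for its control. The second HaCa4 control and sorted replicate 3 gave -0.09. With 2 controls, whose deviations mirror each other, pairing in HaCa4 could not be settled. The second HaCa4 control is replicate 2 in its label and 3 in its column header. The 4 genes, the pathway and marker lists, and the tests were chosen with earlier results of these data known. Named were the 4 genes, listed genes of the pathway and marker lists, and the 2 genes of most similar profile. *Errfi1* and *Stat2* as neighbours on the chromosome were chosen after their values were seen. Other settings were added constants of 0.1 and 5, filters at a mean of 1 or 10 TPM, scaling to the same median, no trend, a replicate block, a log2 threshold of 1, and leaving out each library. Promoter windows were those of RefSeq for GRCm38.p6. Permutation tests were run in scipy 1.17.1 and plots drawn in matplotlib 3.10.9 under Python 3.11.15.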

Additional observations from a re-analysis of the deposited data

Results flagged for a closer look

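For 6 of the named genes listed in both lines, the change in LECs and the change in HaCa4 cells differed by the interaction term in limma. So did 82.6% of all 23 genes listed for both lines, and the count is therefore not a result about the named genes. The difference, LEC change minus HaCa4 change on the log2(TPM + 1) scale, was 1.45 for *Tnfrsf9*, 1.93 for *Ikbke* (adjusted p = 0.00196), and 1.67 for *Lif* (adjusted p = 0.00264). *Tnfrsf9*, *Ikbke*, *Lif*, and *Krt8* were higher in every LEC-sorted and lower in every HaCa4-sorted library than in the respective controls. Such a rise without overlap was found for 63.9% of all genes listed for LECs. The corresponding fall was found for 33.4% of those listed for HaCa4. *Cxcl3*, which rose in both lines, differed by 3.29 (adjusted p = 0.00268). The markers *Krt8* and *Kdr* differed by 1.52 and -1.50 (adjusted p = 0.0103 for both). *Selp*, also listed for both lines, did not pass, with a difference of 0.64 (95% confidence interval -0.58 to 1.86, adjusted p = 0.302).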

How the results depend on the processing

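Over 85 alternative values for the 4 genes, including *Tnfrsf9* in each line and between them, 78 kept the direction and side of the thresholds and 0 reversed. Within each line the libraries of these genes did not overlap, so only scaling to the same median could have reversed a direction. *Il1r1* no longer passed after scaling to the same median (0.54), nor *Tnfrsf9* in LECs with 5 added (0.30) or a log2 threshold of 1 (its value of 0.96 being unchanged). *Tnfsf15* passed with 0.1 added (1.93). *Tnfrsf9* in HaCa4 passed with 0.1 added (-0.50), after scaling (-1.34), and with the replicate block (-0.55), but not with the second control numbered 3 in the block (-0.45, a choice made after seeing the data). The cause of these was not tested. Leaving out single libraries gave log2 fold changes of 1.18 to 1.91 for *Il23a*, 0.92 to 1.38 for *Il1r1*, 0.29 to 0.57 for *Tnfsf15*, 0.86 to 1.02 for *Tnfrsf9* in LECs, -0.67 to -0.31 in HaCa4, and 1.27 to 1.63 for the difference between lines. Filters at 1 and 10 TPM removed *Tnfsf15* and *Tnfrsf9*, and at 10 also *Il23a*, from the LEC fit.

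Of all genes listed for LECs, 184 passed (122 higher, 62 lower), 110 after scaling (46 higher, 64 lower), 95 at a log2 threshold of 1, and 165 to 177 without single libraries. In HaCa4, 87 passed (46 higher, 41 lower), 177 with 0.1 added, 33 with 5 added, 145 after scaling (50 higher, 95 lower), 39 at a log2 threshold of 1, and 0 in limma without trend (161 at an unadjusted p under 0.05). Without single libraries between 0 and 194 passed, with 6 without control replicate 1, 0 without control replicate 2 (70 unadjusted), 194 without sorted replicate 1, and 0 without sorted replicate 3 (126 unadjusted). Where 1 control remained, it was assumed to vary like the sorted libraries. The replicate block gave 182 in LECs, 115 in HaCa4, and 19 of 23 for the interaction, and 22 in HaCa4 with the second control numbered 3. Beside *Tnfrsf9* in HaCa4, it changed no call of the 4 genes. LEC libraries did not all correlate best with their own number, whereas both HaCa4 controls did as labelled. At the level of *Tnfsf15*, rounding limits what can be said.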

Other observations

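Few genes beside the 4 on the chromosome were listed. Of the 3 nearest protein-coding genes on either side of each, 1 was listed for LECs, *Errfi1*, and 1 for HaCa4 cells, *Stat2*. *Errfi1* lies 51266 bases before *Tnfrsf9* on chromosome 4 and rose in LEC-sorted with a log2 fold change of 1.15, from 61.85, 37.74, and 59.91 TPM to 112.59, 121.82, and 115.76 TPM. It was the lowest in LEC control replicate 2, as was *Il1r1*, whereas the *Tnfrsf9* controls were nearly equal. *Stat2*, a transcription factor of the interferon response, lies 3287 bases before *Il23a* on chromosome 10. *Il1r1* stands in a row of related receptor genes on chromosome 1, with *Il1r2* on one side and *Il1rl2*, *Il1rl1*, and *Il18r1* on the other, and of these only *Il1r1* was listed.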
